A study of Mus musculus with 6 samples.

Results

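The PGC-1 coactivators, the PPAR and ERR nuclear receptors and their close partners form a small transcriptional circuit that sets the oxidative capacity of the heart. The genes examined here were Ppargc1a and Ppargc1b (PGC-1alpha and PGC-1beta), Ppara, Ppard and Rxra, Esrra, Esrrb and Esrrg, and Nrf1 and Tfam. They were chosen by symbol, with earlier results of these data known, and all 10 were found among the 15909 genes of the deposited expression table. Expression was measured by stranded mRNA sequencing of left ventricles of adult C57/B6J mice collected 4 days after myocardial infarction (MI), which was produced by permanent ligation of the left anterior descending coronary artery. The CCN3 group (n = 3) had received intraperitoneal recombinant human CCN3, a secreted matricellular protein, at 6 µg/kg. The PBS group (n = 3) had received the vehicle, phosphate-buffered saline. All 6 ventricles were therefore injured, no uninjured heart was analysed here, and the animals carried no transgene. The sources differ on how many daily injections were given. Pairwise correlations of the 6 libraries across all genes were 0.989 to 0.998. The labels number the ventricles within each group but do not say in so many words that each came from a different mouse, so p-values measure the spread between these samples. The comparison asks how exogenous CCN3 altered expression in the infarcted ventricle, and here it is read for the regulators of energy metabolism.

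PGC-1alpha and PGC-1beta do not bind DNA themselves. They dock on nuclear receptors and on nuclear respiratory factors and recruit the machinery that opens chromatin and starts transcription. PPARalpha, paired with an RXR partner, drives genes of fatty acid uptake and oxidation, the main fuel route of the adult heart, while the ERR receptors drive the tricarboxylic acid cycle and the respiratory chain. NRF1 acts on nuclear genes of mitochondrial proteins, among them Tfam, whose product packages and transcribes mitochondrial DNA. Messenger RNA levels of several members of this circuit are known to fall in failing hearts.

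Short stretches of promoter are shown for the members whose window holds a motif of the circuit, as a description of the letters. The 250 bases before each RefSeq transcription start were searched on both strands for 4 motifs: the NRF1 core GCATGCGC, the core CCGGAAGT bound by GABP and other ETS factors, the ERR motif AAGGTCA, and the CRE motif TGACGT bound by CREB, a known activator of Ppargc1a. RefSeq promoters (table on GRCm38.p6) were matched for 9 of the 10 members, with 15 promoters among them. Each stretch of 30 bases is written 5′ to 3′ on the strand of the gene, with the motif in capitals, and was placed on GRCm39 by its single exact match.
Ppargc1a, chr5:51725100-51725129, minus strand, CRE motif read on the opposite strand: aggtgccctcccACGTCActgagctccagt
Ppara, chr15:85619936-85619965, plus strand, 2 overlapping NRF1 cores, 1 on each strand: gggctcggtgGCGCATGCGCgcggactagg
Esrra, chr19:6899192-6899221, minus strand, NRF1 core: ccccctgttttGCATGCGCaggccggcccc
Rxra, chr2:27599244-27599273, plus strand, ERR motif before a start within the gene: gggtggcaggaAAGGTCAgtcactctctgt
Tfam, chr10:71073903-71073932, minus strand, GABP and ETS core: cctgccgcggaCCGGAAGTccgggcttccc
Perm1, chr4:156300171-156300200, plus strand, ERR motif read on the opposite strand: ggaatccggtgTGACCTTagctaatgccaa

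Perm1 is shown as well because it encodes a muscle regulator known to be induced by PGC-1 and ERR and had the lowest p among the receptor partners described below. The Ppargc1a, Rxra and Perm1 stretches lie outside annotated exons of their genes in GENCODE, the Ppara and Tfam stretches lie wholly in exons of some transcripts, and 17 of the 30 Esrra bases do. The Ppara, Esrra and Tfam stretches thus lie within the annotated span of their genes, as does that of Rxra. The overlapping Ppara matches form a palindrome, which reads the same on both strands. Among 32851 promoters of the same length, the NRF1 core was found in 2.26%, the GABP and ETS core in 2.88%, the ERR motif in 4.08% and the CRE motif in 6.47%. In the 15 promoters of the members, the NRF1 core was found in 2 (13.3%). The GABP and ETS core, the ERR motif and the CRE motif were each found in 1 (6.67%). Such matches describe the letters and do not show that a factor is bound.

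None of the 10 regulators passed the test between CCN3 and PBS ventricles (limma, Benjamini-Hochberg adjusted p under 0.2, the false discovery rate at which the study called genes). The lowest adjusted p among them was 0.347, for Ppargc1a. Over all genes, 172 (1.08%) passed as lower and 82 (0.515%) as higher in CCN3 ventricles. The point estimate was negative for 9 members and positive for 1, Ppargc1b, with a median log2 fold change of -0.11, against -0.002 for all genes. In 6 members every CCN3 library lay below every PBS library, in a table where 18.2% of all genes separated that way and 15.1% separated with CCN3 higher. At an unadjusted limma p under 0.05, 3 members were lower and 0 higher, where the shares over all genes were 6.59% lower and 4.05% higher. All values are the deposited log2 CPM (read counts scaled to library size), which had been corrected for 2 factors of unwanted variation (RUV), so the spreads given here leave out the variation that was removed. Since these are whole ventricles, fewer cells of a type cannot be told apart from less RNA per cell.

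**Figure D1:**
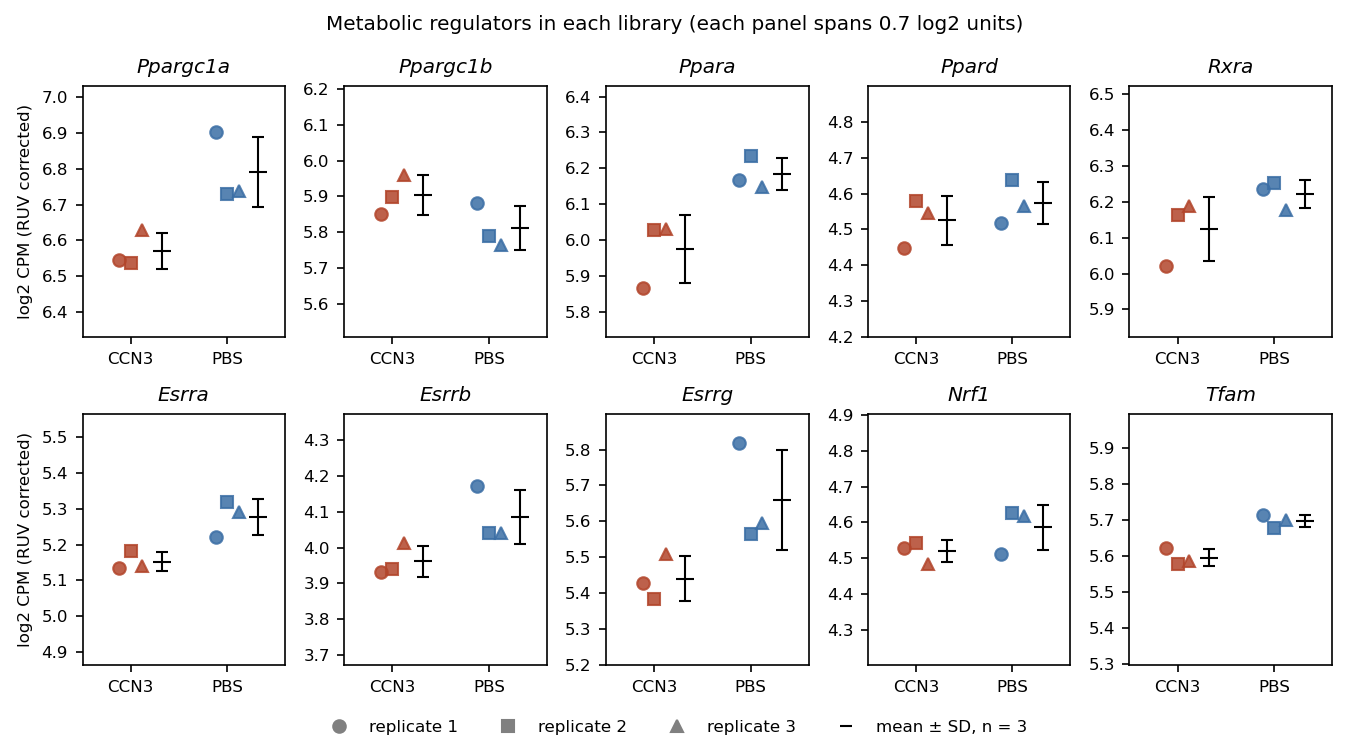
Log2 CPM of each of the 10 regulators in the 3 CCN3 libraries (left, red) and the 3 PBS libraries (right, blue), with replicates 1, 2 and 3 as circles, squares and triangles and the mean ± SD (n = 3) as a black bar. The groups do not overlap for Ppargc1a, Ppara, Esrra, Esrrb, Esrrg and Tfam, and PBS replicate 1 is the highest library for Ppargc1a, Esrrb, Esrrg and Tfam.

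Ppargc1a, the inducible coactivator of the circuit, was at 6.54, 6.54 and 6.63 log2 CPM in CCN3 ventricles, against 6.90, 6.73 and 6.74 log2 CPM in PBS ventricles. All 3 CCN3 libraries were lower than all 3 PBS libraries, and PBS replicate 1 stood above the other two. The log2 fold change was -0.22 ± 0.07 (SE; 95% interval -0.39 to -0.05), or 0.859-fold, with a limma adjusted p of 0.347. Its paralogue Ppargc1b, a coactivator with overlapping targets, was at 5.85, 5.90 and 5.96 log2 CPM in CCN3 ventricles and at 5.88, 5.79 and 5.77 log2 CPM in PBS ventricles. These groups overlapped, and the estimate was on the positive side of 0, at 0.09 ± 0.07 (SE; 95% interval -0.07 to 0.25; limma adjusted p = 0.702). Within a library, Ppargc1a exceeded Ppargc1b by 0.69, 0.64 and 0.67 log2 units in CCN3 ventricles and by 1.02, 0.94 and 0.97 log2 units in PBS ventricles. The gap between the 2 coactivators was thus smaller in every CCN3 library, by 0.31 log2 units on average.

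Pairs of related members were picked for this reading after the values had been seen, so their gaps are given as a description with no test. For Ppara against Ppard the within-library gap averaged 1.45 ± 0.03 log2 units in CCN3 ventricles and 1.61 ± 0.04 log2 units in PBS ventricles (SD, n = 3 each), and the groups did not overlap. For Esrrg against Esrra it averaged 0.29 ± 0.08 log2 units in CCN3 ventricles and 0.38 ± 0.19 log2 units in PBS ventricles, and for Tfam against Nrf1 it averaged 1.08 ± 0.04 log2 units in CCN3 ventricles and 1.11 ± 0.08 log2 units in PBS ventricles (SD, n = 3 each). In these last pairs the libraries of the groups overlapped.

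Among the receptors, Ppara, the fatty acid sensor that drives beta-oxidation genes, was at 5.87, 6.03 and 6.03 log2 CPM in CCN3 ventricles, against 6.17, 6.23 and 6.15 log2 CPM in PBS ventricles. The groups did not overlap, and CCN3 replicate 1 was the lowest library. The difference was -0.21 ± 0.07 on the log2 scale (SE; 95% interval -0.38 to -0.04; limma adjusted p = 0.371), or 0.866-fold. Rxra, which encodes an RXR, the kind of receptor the PPARs pair with to bind DNA, was at 6.02, 6.16 and 6.19 log2 CPM in CCN3 ventricles and at 6.24, 6.25 and 6.18 log2 CPM in PBS ventricles. Here CCN3 replicate 3 lay just above PBS replicate 3, so the groups overlapped (log2 fold change -0.10 ± 0.07, SE; limma adjusted p = 0.694). Ppard, the more broadly expressed PPAR, was at 4.45, 4.58 and 4.55 log2 CPM in CCN3 ventricles and at 4.52, 4.64 and 4.57 log2 CPM in PBS ventricles. Its libraries were intermixed, and the interval of its log2 fold change, -0.24 to 0.14, still includes a drop as large as the estimate for Ppara.

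The ERR receptors, orphan receptors that need no known natural ligand, had CCN3 libraries below all PBS libraries for each of the 3 genes. Of all genes, 18.2% separated that way. Esrrg, the isoform known for the postnatal switch of the heart to oxidative metabolism, was at 5.43, 5.38 and 5.51 log2 CPM in CCN3 ventricles, against 5.82, 5.57 and 5.59 log2 CPM in PBS ventricles. Its log2 fold change was -0.22 ± 0.09 (SE; 95% interval -0.43 to -0.004; limma adjusted p = 0.455). The highest CCN3 library, replicate 3, lay just below the lowest PBS library, replicate 2, while PBS replicate 1 stood well above the other PBS libraries. Esrra, the partner most often studied with PGC-1alpha, was at 5.13, 5.18 and 5.14 log2 CPM in CCN3 ventricles, against 5.22, 5.32 and 5.29 log2 CPM in PBS ventricles. Its libraries lay close together within each group, and the log2 fold change was -0.13 ± 0.07 (SE; limma adjusted p = 0.568). Esrrb was at 3.93, 3.94 and 4.01 log2 CPM in CCN3 ventricles, against 4.17, 4.04 and 4.04 log2 CPM in PBS ventricles (log2 fold change -0.12 ± 0.09, SE; limma adjusted p = 0.690). Here too the highest CCN3 library, replicate 3, lay just below the lowest PBS library.

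Of the factors closest to mitochondrial DNA, Tfam was at 5.62, 5.58 and 5.59 log2 CPM in CCN3 ventricles, against 5.71, 5.68 and 5.70 log2 CPM in PBS ventricles. It had the tightest replicates of the 10 members, the groups did not overlap, and the log2 fold change was -0.10 ± 0.06 (SE; 95% interval -0.24 to 0.04; limma adjusted p = 0.603). Nrf1 was at 4.53, 4.54 and 4.49 log2 CPM in CCN3 ventricles and at 4.51, 4.63 and 4.62 log2 CPM in PBS ventricles. PBS replicate 1 fell among the CCN3 libraries, and the log2 fold change was -0.07 ± 0.08 (SE; limma adjusted p = 0.817).

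**Figure D2:**
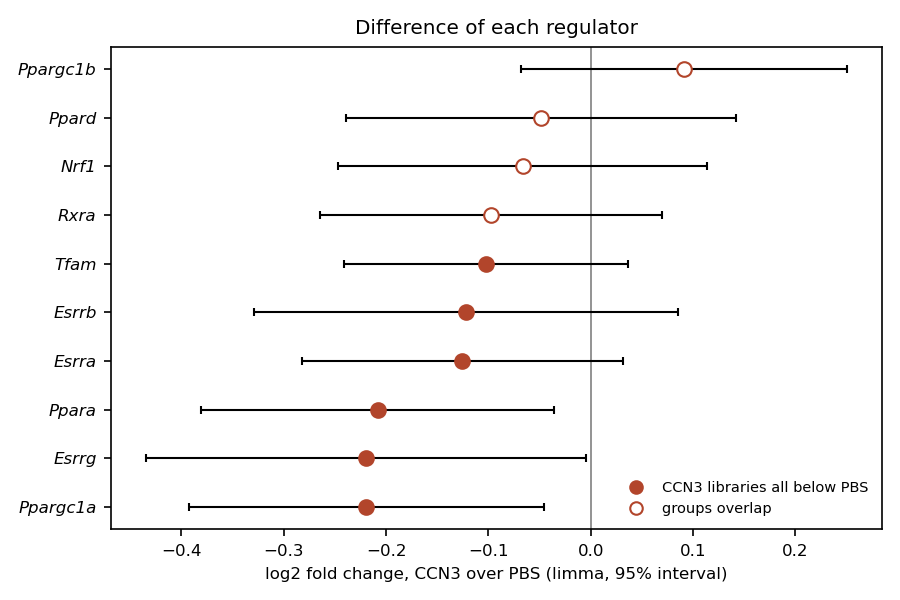
Log2 fold change of CCN3 over PBS for the 10 regulators (points) with the 95% interval from limma (bars), ordered by size. Filled points mark genes whose CCN3 libraries all lay below the PBS libraries. The intervals of Ppargc1a, Ppara and Esrrg end below 0, none of the 10 passed after adjustment, and Ppargc1b is the only point above 0.

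Levels of the members were compared per kilobase of the canonical GENCODE transcript. Ppara had the highest level, at 17.7 ± 1.14 CPM per kb in CCN3 ventricles and 20.5 ± 0.642 CPM per kb in PBS ventricles (SD, n = 3 each). In CCN3 ventricles Esrra, at 15.7 CPM per kb, and Ppargc1b, at 15.3 CPM per kb (range 14.8 to 16.0), came next and overlapped each other. Ppargc1a, at 14.7 CPM per kb (range 14.4 to 15.3) in CCN3 ventricles, overlapped Ppargc1b, and Rxra followed at 12.8 CPM per kb. In PBS ventricles the next were Esrra (17.2 CPM per kb) and Ppargc1a (17.1 CPM per kb), which overlapped each other, and then Ppargc1b (14.4 CPM per kb) and Rxra (13.6 CPM per kb), whose ranges lay side by side. The order of the coactivators by level thus differed between the groups, within overlapping ranges in CCN3 ventricles. Tfam (11.6 CPM per kb in CCN3 and 12.4 CPM per kb in PBS ventricles) and Nrf1 (11.4 CPM per kb in CCN3 and 11.9 CPM per kb in PBS ventricles) overlapped in CCN3 ventricles, and only just failed to in PBS ventricles. The Nrf1 level depends on the transcript taken, since with the longest coding transcript it averaged 6.30 CPM per kb over the 6 libraries. The place of Esrra does as well. With the longest coding transcripts Esrra averaged 14.4 CPM per kb, below Ppargc1a (15.8 CPM per kb) and Ppargc1b (14.5 CPM per kb). Lower down came Esrrg (8.21 CPM per kb in CCN3 and 9.58 CPM per kb in PBS ventricles) and Ppard (7.03 CPM per kb in CCN3 and 7.27 CPM per kb in PBS ventricles). Esrrb was lowest in every library, at 3.71 CPM per kb in CCN3 and 4.04 CPM per kb in PBS ventricles. The last 3 did not overlap one another in either group.

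The members did not vary together as 1 block. Across the 6 libraries, Pearson's r with Ppargc1a was 0.985 for Esrrb and 0.985 for Esrrg, 0.873 for Tfam, 0.765 for Ppara, 0.694 for Rxra and 0.564 for Esrra. It was 0.183 for Ppard, 0.160 for Nrf1 and -0.27 for Ppargc1b. These are descriptions over libraries that share the 2-group contrast and the correction, and high values are common in this table. Of 13414 genes with a mean of at least 1 log2 CPM, 128 had an r with Ppargc1a of at least that of Esrrb, and 1209 had at least that of Tfam. The 3 genes most like Ppargc1a were Zfp354a (r = 0.9995), Slc25a26 (r = 0.9995) and Dnajc28 (r = 0.9994). Slc25a26 encodes the mitochondrial carrier of S-adenosylmethionine. PBS replicate 1 was the highest library for Ppargc1a, Esrrb, Esrrg and Tfam.

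That library also had the highest summed level of cardiomyocyte markers, 53678 CPM. Over the 14 cardiomyocyte markers, all measured, the sum ranged over 43422 to 46801 CPM in CCN3 ventricles and 46137 to 53678 CPM in PBS ventricles, while the median of the markers within a library, averaged over each group, differed by -0.009 log2 units between CCN3 and PBS. The 10 fibroblast markers, all measured, summed to 20356 to 22649 CPM in CCN3 ventricles and 18343 to 22550 CPM in PBS ventricles. The 8 endothelial markers, all measured, summed to 1113 to 1281 CPM in CCN3 ventricles and 1227 to 1305 CPM in PBS ventricles, with 8 negative estimates. Neutrophil markers, with 6 of 6 measured, summed to 62.1 to 80.3 CPM in CCN3 ventricles and 55.0 to 92.7 CPM in PBS ventricles. Summed macrophage markers, with 10 of 10 measured, were at 3362 to 3607 CPM in CCN3 ventricles and 3570 to 3784 CPM in PBS ventricles. Skeletal muscle markers, of which 5 of 9 were measured and Myh1, Myh2, Myh4 and Atp2a1 were not, summed to 214 to 331 CPM in CCN3 ventricles and 93.6 to 162 CPM in PBS ventricles. The median of these 5 within a library was only 1.34 to 2.14 log2 CPM in CCN3 and 0.49 to 0.97 log2 CPM in PBS ventricles. Few genes thus carried the sum, which is not a measure of skeletal muscle content. Adipocyte markers, with 7 of 8 measured and Ucp1 not, summed to 807 to 916 CPM in CCN3 ventricles and 788 to 842 CPM in PBS ventricles. Positive and negative estimates numbered 7 and 7 for cardiomyocyte, 7 and 3 for fibroblast, 3 and 7 for macrophage and 2 and 4 for neutrophil markers. All 7 adipocyte and all 5 skeletal muscle estimates were positive. Of single markers that passed, the cardiomyocyte gene Tnni3 was lower (log2 fold change -0.44, limma adjusted p = 0.177). The fibroblast gene Mfap5 (0.37, limma adjusted p = 0.177) and the actin gene Acta1, from the skeletal muscle list (1.12, limma adjusted p = 0.192), were higher. The part of these shifts in the values of the regulators was not tested.

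Leaving out PBS replicate 1 altered which members passed. Without it Ppargc1a was called lower at a log2 fold change of -0.16 (limma adjusted p = 0.161), Ppara at -0.22 (limma adjusted p = 0.192) and Esrra at -0.15 (limma adjusted p = 0.170), and the estimate for Esrrg shrank to -0.14. In that fit 7.97% of all genes passed as lower, against 1.08% with all 6 libraries. Without any one of the other 5 libraries, 0 members passed. The direction of all 10 estimates was kept in each of the 6 fits that left out 1 library, with Ppargc1a between -0.25 and -0.16, Ppara between -0.24 and -0.15, and Ppargc1b between 0.06 and 0.13.

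**Figure D3:**
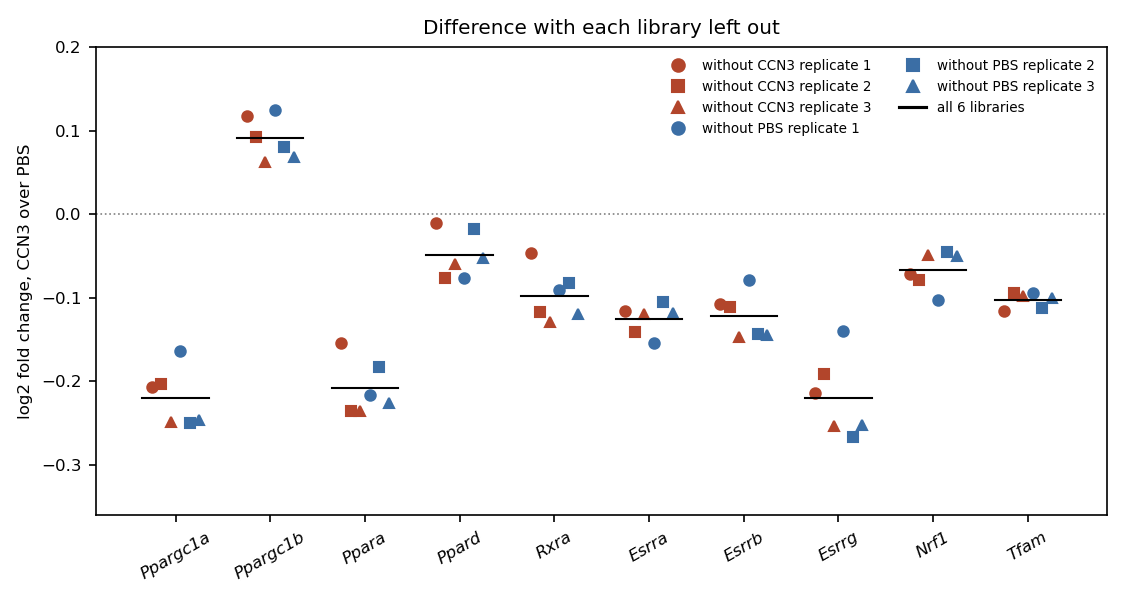
Log2 fold change of CCN3 over PBS for each regulator when 1 library is left out (red symbols, a CCN3 library; blue symbols, a PBS library) and with all 6 libraries (black line). Every symbol stays on the side of 0 of its black line, and the blue circle, without PBS replicate 1, lies nearest to 0 for Ppargc1a, Esrrb and Esrrg.

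The genes around the regulators were read in 6 lists with 128 entries, of which 127 were measured. In these lists 3 genes passed as lower and 0 as higher, beside 1.08% and 0.515% of all genes. Of the listed estimates 91 were negative, as were 8043 of 15909 over all genes. The partners and relatives of the receptors, 13 genes, had none that passed. The gene with the lowest p, Perm1, was at 7.09, 7.19 and 7.27 log2 CPM in CCN3 ventricles, against 7.60, 7.49 and 7.44 log2 CPM in PBS ventricles. Its groups did not overlap, and its log2 fold change of -0.33 (limma adjusted p = 0.215) was larger than that of any of the 10 regulators. The next were Nr1d2 (log2 fold change -0.29) and Nr1d1 (-0.38), which encode the heme-binding REV-ERB repressors of the circadian clock. The coactivators and corepressors that work with the receptors, 16 genes, had 0 calls and 0 genes at an unadjusted limma p under 0.05, with a median log2 fold change of -0.01. Hdac5 (log2 fold change -0.11) and Ncoa3 (-0.09) were among those with the lowest p values.

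Known upstream regulators of Ppargc1a, 23 genes, also had 0 calls. At an unadjusted limma p under 0.05, 5 (21.7%) were higher and 1 (4.35%) lower, beside 4.05% and 6.59% of all genes. Prkag2, a regulatory subunit of the energy sensor AMPK, was at 5.68, 5.71 and 5.75 log2 CPM in CCN3 ventricles, against 5.49, 5.42 and 5.41 log2 CPM in PBS ventricles. Every CCN3 library was above every PBS library (log2 fold change 0.28, limma adjusted p = 0.207). Tead1 (0.18) and Ppp3ca (0.15), a Hippo pathway transcription factor and a catalytic subunit of calcineurin, followed. The factors of mitochondrial DNA transcription and replication, 18 genes, had 0 calls and 1 gene (5.56%) lower at an unadjusted limma p under 0.05. That gene was Tfb2m, the partner of TFAM in starting mitochondrial transcription (log2 fold change -0.17, limma adjusted p = 0.352), ahead of Mgme1 (-0.22) and Mterf2 (-0.24).

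**Figure D4:**
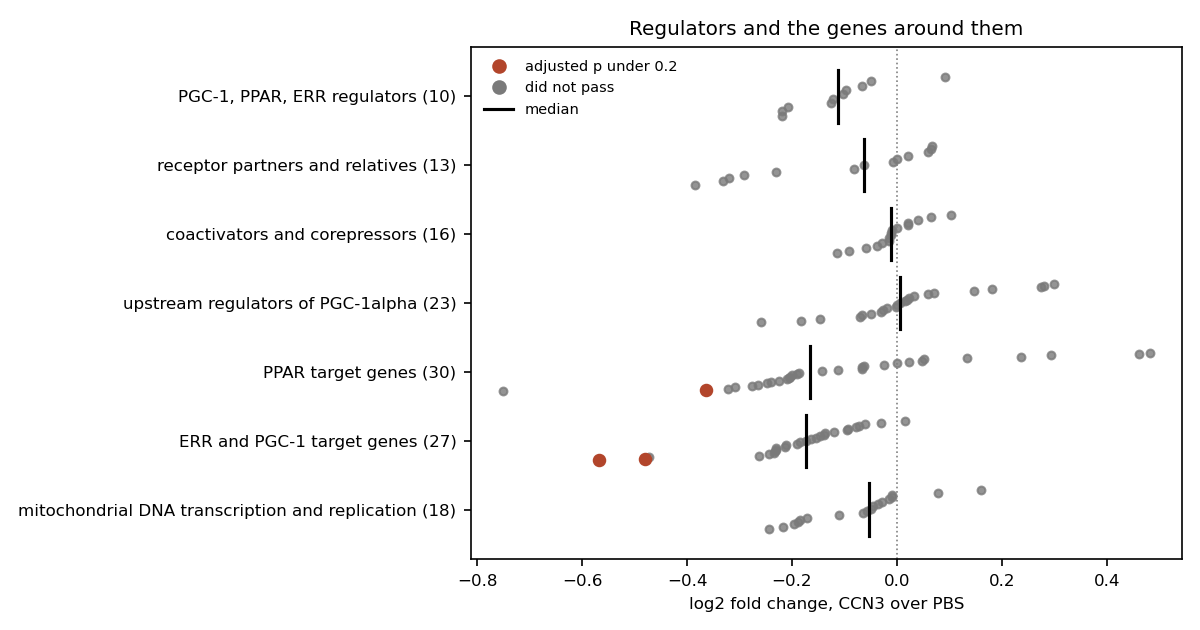
Log2 fold change of CCN3 over PBS for the 10 regulators (top row) and for the measured genes of the 6 lists around them, with the number of genes in brackets. Points are genes, red where the adjusted p was under 0.2, and the black line is the median. The medians of the PPAR targets (-0.16) and of the ERR and PGC-1 targets (-0.17) lie left of the median of the regulators (-0.11), and the 3 red points fall in these 2 rows.

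The targets of the regulators held the 3 genes that passed. Of the 30 measured PPAR target genes (Fgf21 was not measured), 1 fell, namely Hadhb, the beta subunit of the mitochondrial trifunctional protein of beta-oxidation. Hadhb was at 9.56, 9.59 and 9.62 log2 CPM in CCN3 ventricles, against 9.996, 9.94 and 9.93 log2 CPM in PBS ventricles. The groups did not overlap, and the log2 fold change was -0.36 ± 0.07 (SE; limma adjusted p = 0.178). At an unadjusted limma p under 0.05, 12 PPAR targets (40%) were lower and 2 (6.67%) higher, beside 6.59% and 4.05% of all genes. The median log2 fold change over the list was -0.16.

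Of the 27 ERR and PGC-1 target genes, 2 fell. Both encode subunits of cytochrome c oxidase in the forms used by heart and skeletal muscle. Cox6a2 was at 7.70, 7.60 and 7.59 log2 CPM in CCN3 ventricles, against 8.11, 8.08 and 8.14 log2 CPM in PBS ventricles (log2 fold change -0.48 ± 0.06, SE; limma adjusted p = 0.119). Cox8b was at 6.40, 6.21 and 6.26 log2 CPM in CCN3 ventricles, against 6.94, 6.76 and 6.87 log2 CPM in PBS ventricles (log2 fold change -0.57 ± 0.08, SE; limma adjusted p = 0.125). Neither pair of groups overlapped. In this list 26 of 27 estimates were negative, and 21 genes (77.8%) separated with CCN3 lower, beside 18.2% of all genes. At an unadjusted limma p under 0.05, 14 (51.9%) were lower and 0 higher, beside 6.59% and 4.05% of all genes. The study had already described lower mitochondrial transcripts from these same libraries, so the list is not independent evidence of its direction. Hadhb no longer passed without PBS replicate 3 (limma adjusted p = 0.241). With libraries centred on the cardiomyocyte markers, Hadhb (limma adjusted p = 0.735) and Cox6a2 (limma adjusted p = 0.343) no longer passed, while Cox8b did (limma adjusted p = 0.164). Under that centring the log2 fold changes of Hadhb, Cox6a2 and Cox8b were -0.36, -0.47 and -0.56, with wider SEs of 0.16, 0.17 and 0.18. None of the 3 passed in limma without a mean-variance trend, at adjusted p-values of 0.413 for Hadhb, 0.383 for Cox6a2 and 0.405 for Cox8b.

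The promoters of these targets were searched for the same 4 motifs. In 31 promoters of the ERR and PGC-1 target genes, the CRE motif was found in 29.0% and the NRF1 core in 16.1%, beside 6.47% and 2.26% of all promoters, the GABP and ETS core in 3.23%, beside 2.88%, and the ERR motif in 0. In 29 promoters of the PPAR target genes the CRE motif was found in 6.90%, the GABP and ETS core in 6.90%, the NRF1 core in 3.45% and the ERR motif in 3.45%.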

How the data were processed

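Reads were assigned by the authors to transcripts of GRCm39 with Salmon 1.4.0 and analysed in edgeR, as stated in the submitters' processing notes. The authors deposited log2 CPM values from which 2 factors of unwanted variation had been removed. They also deposited a fold change, p-value and false discovery rate for each gene, which were not used here. Counts were not analysed here, so depth is unknown and no counting interval is given.

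The removal left 2 of the 4 directions within groups empty. These were recovered from the values and entered with treatment in limma 3.58.1 (R 4.3.3). The test was two-sided, with variance moderated by an abundance trend and 2 residual and 4.47 prior degrees of freedom. Benjamini-Hochberg adjustment was over 15909 genes, with a threshold of 0.2. Only the part of the removed factors within groups can be recovered in this way. The SEs and p-values thus leave out any part that those factors shared with treatment. The fit was run on simulated data with normal errors from which the same 2 directions had been removed. Such data follow the model by design and cannot show how it handles removed factors shared with treatment. The members and lists were chosen with earlier results of these data known. Named genes were every member, the genes of each list that passed or else the 3 with the smallest p, and the 3 most correlated with Ppargc1a. Of these, 1 gene is not reported here. Levels per kb used GENCODE transcript lengths. Alternatives were other error models, scalings, filters, thresholds, an added 1 CPM and leaving out each library.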

Additional observations from a re-analysis of the deposited data

How the results depend on the processing

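All 10 regulators kept the sign of their log2 fold change under the 14 alternative fits, as did the named genes of the 6 lists. The fit reported above called 254 genes. Leaving out 1 library gave 50 to 2219 genes, 0 to 3 regulators (3 without PBS replicate 1, Ppargc1a, Ppara and Esrra) and 2 to 37 of the 127 listed genes, against 3 with all libraries. A fit of treatment alone, which counts the removed directions as residual degrees of freedom, called 4771 genes, 6 regulators (Ppargc1a, Ppara, Esrra, Esrrb, Esrrg and Tfam) and 57 listed genes. Without a mean-variance trend limma called 1 gene and 0 listed genes (39 listed genes had an unadjusted p under 0.05 with the trend). Robust empirical Bayes called 9 listed genes and a minimum mean of 1 log2 CPM called 6, and the cause was not tested. At an adjusted p under 0.1 or under 0.05, 0 genes and 0 listed genes passed in limma (1694 genes had an unadjusted p under 0.05, and the lowest adjusted p was 0.110). Centring on the cardiomyocyte markers gave 96 genes higher and 131 lower, against 82 higher and 172 lower. Deviations of same-numbered libraries correlated at r = 0.127, 0.968 and -0.98. Since the correction had emptied 2 of the 4 directions within groups, these values cannot show whether the replicate numbers pair the samples. A fit with the replicate number as a block called 5932 genes, 5 regulators and 65 listed genes.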
